A study of Rattus norvegicus and Mus musculus with 18 samples.

Results

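The Hedgehog pathway was followed through its ligand Shh, the receptor Ptch1, the signal transducer Smo, the transcription factors Gli1, Gli2 and Gli3, and the ligand-binding antagonist Hhip, in the dissected tissues of the embryonic mouse and rat kidney. A probe set, the group of short oligonucleotides that reports 1 transcript on an Affymetrix array, was taken when the array annotation gave it only 1 gene symbol and that symbol was 1 of these 7. This gave 18 of the 45101 probe sets of the mouse array, which named 18193 genes by a single symbol. On the rat arrays it gave 2 of 8799 in the first design, 0 of 8791 in design B and 1 of 8789 in design C, all of them for Shh or Smo. In all, 21 of 71480 probe sets were followed, and 0 probe sets were left out for carrying a member's symbol beside another.

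The metanephric kidney arises from the ureteric bud, a branching epithelial tube, and the metanephric mesenchyme around it. Mouse kidneys of stage E12.5 (embryonic day) were dissected into pools of about 1000 bud tips, about 350 bud stalks and about 300 mesenchymes. Rat kidneys of stage E13.5 were dissected into pools of about 1200 whole buds and about 240 mesenchymes, and each pool was hybridised to 3 array designs. There were 2 arrays for each tissue and design, 18 in all, and both were labelings of the same pooled RNA, so that every p-value below measures labelling and hybridisation spread and not the spread between animals. The labels name no strain, mutation or drug for any pool, and every pool had the same 10 min digestion with DNase and trypsin. Mixing of bud and mesenchyme was checked by eye and with a lectin that stains the bud, per the labels.

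Hedgehog proteins are secreted signals. In the absence of ligand, Ptch1 holds Smo inactive and Gli3 is cut to a repressor. When ligand binds Ptch1, Smo becomes active at the primary cilium, Gli2 and Gli3 are kept as activators, and the genes Gli1, Ptch1 and Hhip are transcribed, so that the level of these 3 transcripts is widely used as a readout of the response. In the kidney and ureter, Shh is known as a product of the ureteric epithelium away from the branching tips, and the cells around that epithelium as the responding ones.

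The promoter windows of Ptch1 and Hhip are shown because the transcripts of this receptor and this antagonist were called between mouse tissues. The windows run from 250 bases before to 50 bases after the annotated start site, 300 bases in all. They come from RefSeq's rat assembly GRCr8, so they are rat sequences beside mouse measurements. In the Hhip window the annotated start falls on the letters atg, a start codon. It may thus mark the coding sequence and not the transcript's start, and this window may not hold the Hhip promoter. Of the 7 genes, 5 were matched by symbol (Ptch1, Smo, Gli2, Gli3 and Hhip), and windows for Shh and Gli1 were not used here. The Ptch1 window lies at chr17:1555321-1555620 on the plus strand and the Hhip window at chr19:44767788-44768087 on the plus strand. Capitals mark the Gli consensus TGGGTGGTC, which was searched on both strands.
Ptch1: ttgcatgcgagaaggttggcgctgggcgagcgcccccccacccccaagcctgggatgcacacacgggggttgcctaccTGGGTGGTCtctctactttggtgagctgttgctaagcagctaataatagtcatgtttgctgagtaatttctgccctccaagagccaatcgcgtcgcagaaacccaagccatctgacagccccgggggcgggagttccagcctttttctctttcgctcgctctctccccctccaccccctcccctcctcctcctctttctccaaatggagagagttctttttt
Hhip: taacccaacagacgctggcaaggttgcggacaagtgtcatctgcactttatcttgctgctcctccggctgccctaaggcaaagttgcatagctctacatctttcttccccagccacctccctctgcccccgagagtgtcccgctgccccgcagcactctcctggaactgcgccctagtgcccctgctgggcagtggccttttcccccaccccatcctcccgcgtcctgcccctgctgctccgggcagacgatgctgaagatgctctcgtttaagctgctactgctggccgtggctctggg
The Ptch1 window held 1 match, on the plus strand, which began 172 bases before the start site, and the windows of Smo, Gli2, Gli3 and Hhip held 0. Of all 33469 rat promoter windows of this length, 129 held the consensus, a share of 0.385%. Its inner 7 letters, GGTGGTC, were found in 3.05% of windows and, among the 5 genes, only inside the same Ptch1 match. A match is a description of these letters, and a window without one says nothing of sequence elsewhere.

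Signals were compared as quantile-normalised intensities on a linear scale, and differences and their standard errors (SE) as log2(intensity + 16), on which changes of weak signals come out too small. Intensities of different probe sets cannot be set against each other. A probe set was tested when its mean in at least 1 tissue reached its table's median (49.3 intensity units for mouse), and was called when limma's Benjamini-Hochberg adjusted p was under 0.05 and the difference at least 2-fold. Of the 18 mouse probe sets, 12 were tested, of which 11 reached the threshold in all 3 tissues and 1, for Hhip, in stalks only. Repeat arrays of a tissue correlated over all probe sets at 0.993 to 0.998 in mouse and at 0.981 to 0.996 in rat. The second labelling of rat bud RNA stood apart, with a 3′ to 5′ signal ratio of the Gapdh control of 4.26 to 5.28 across the 3 designs, against 1.25 to 1.47 on the other rat arrays and 0.903 to 1.01 in mouse.

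The pools carried the markers of their labels, with some mixing. The summed intensity of 10 bud epithelium markers, among them Calb1, Cdh1 and Ret, was 27080 to 27640 in mouse tips, 13540 to 13710 in stalks and 731 to 770 in mesenchyme. The stalk pool also carried a stromal signal. Of the 6 stroma markers, 1 was called higher in stalks than in mesenchyme and 1 lower. The sum of 6 stroma markers was 1576 to 1780 in tips, 13700 to 13720 in stalks and 11670 to 11920 in mesenchyme, and that of 6 genes of ureteric mesenchyme and smooth muscle was 385 to 405 in tips, 2465 to 2596 in stalks and 1415 to 1454 in mesenchyme. Nephron progenitor markers summed to 671 to 766 in tips, 1838 to 1895 in stalks and 5800 to 5818 in mesenchyme. By their sums, the cell types outside the kidney epithelium and stroma were mostly weakest in tips. Endothelial genes summed to 531 to 536 in tips, 1323 to 1364 in stalks and 2069 to 2088 in mesenchyme. Erythroid genes summed to 1452 to 1488 in tips, 4114 to 4162 in stalks and 8542 to 8596 in mesenchyme. Macrophage genes summed to 270 to 326 in tips, 501.3 to 536 in stalks and 791 to 809 in mesenchyme. Of the 5 macrophage genes, 3 were called lower in tips than in mesenchyme. Ptprc ran the other way without a call, averaging 67.8 in tips and 28.8 in mesenchyme. Adrenal and gonad genes were near one level, at 339 to 380 in tips, 326 to 337 in stalks and 356 to 424 in mesenchyme. The 7 neuronal and floor plate genes summed to 173 to 175 in tips, 303 to 320 in stalks and 601 to 731 in mesenchyme. Of these, Foxa2, Nkx2-2 and Olig2 were below the threshold in every mouse tissue. In bulk pools like these, fewer cells of a type and less RNA per cell cannot be told apart.

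**Figure D1:**
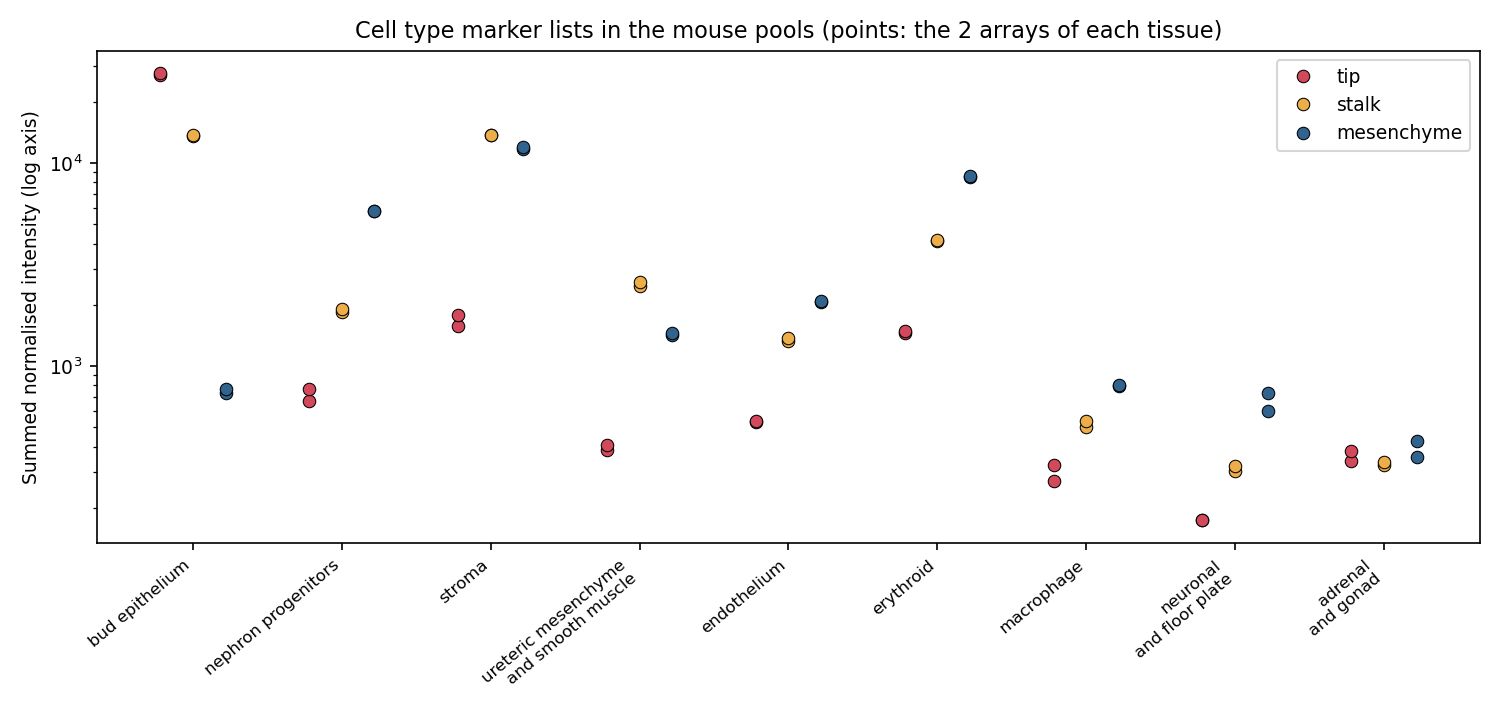
Summed normalised intensity of each cell type marker list (log axis) on the 2 mouse arrays of tips, stalks and mesenchyme at E12.5. Bud epithelium markers were highest in tips, and the stroma list reached 13700 to 13720 in stalks against 1576 to 1780 in tips.

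Shh, the ligand, was higher in both mouse bud tissues than in mesenchyme, where its signal was also above the threshold, and was higher in the stalk than in the tip. Probe set 1436869_at read 321 and 344 in tips, 588 and 511 in stalks and 96.8 and 97.0 in mesenchyme. No arrays of different tissues overlapped, and the order was stalk, tip, mesenchyme. Tips exceeded mesenchyme by 1.63 on the log2 scale (SE 0.09, adjusted p = 1.78e-06) and stalks exceeded mesenchyme by 2.32 (SE 0.09, adjusted p = 7.1e-07), both called by limma. The tip was 0.69 log2 units below the stalk (log2 difference -0.69, 95% interval -0.9 to -0.48, adjusted p = 0.000636), 1.62-fold, which is larger than the spread between labelings but short of the 2-fold rule. Bud epithelium markers ran the other way between these pools, with 5 of 10 called higher in tips and a list median of 1.06. The second Shh probe set, 1427571_at, stayed below the threshold in every tissue and was not tested. It read 39.9 and 33.9 in tips, 38.9 and 45.9 in stalks and 27.2 and 26.4 in mesenchyme, so that both bud tissues lay above mesenchyme and overlapped each other.

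Ptch1, the receptor that is also a target of the pathway, was highest in stalks. Probe set 1428853_at read 677 and 649 in tips, 1903 and 1805 in stalks and 792 and 793 in mesenchyme. The stalk arrays stood far above both other tissues, and tips lay a little below mesenchyme. Tips were lower than stalks by a log2 difference of -1.46 (SE 0.05, adjusted p = 1.65e-07, 2.75-fold), a call. Stalks were higher than mesenchyme by 1.21 (SE 0.05, adjusted p = 7.82e-07, 2.31-fold), also a call. Tips were lower than mesenchyme by -0.25 (95% interval -0.36 to -0.14, adjusted p = 0.0038), well under 2-fold. Markers of the surrounding tissue did not run one way between these pools. The stroma sum was 13700 to 13720 in stalks and 11670 to 11920 in mesenchyme, but within the list Postn was called higher in stalks, at 1.34, and Foxd1 lower, at -1.13. The higher sum for ureteric mesenchyme and smooth muscle in stalks came with Tbx18 at 1.23 and Tshz3 at 1.4, while the smooth muscle genes Acta2 and Tagln were at -0.66 (adjusted p = 0.0106) and -0.78 (adjusted p = 0.00698), neither of them called. Their part in the Ptch1 result was not tested.

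The other Ptch1 probe sets gave no call. The dimmer 1450824_at read 84.2 and 110.6 in tips, 133 and 137 in stalks and 73.8 and 116 in mesenchyme. Stalks were again above both other tissues, whose arrays overlapped. Its tip minus stalk difference was -0.42 (95% interval -0.87 to 0.02, adjusted p = 0.147) and its stalk minus mesenchyme difference 0.47 (95% interval 0.03 to 0.92, adjusted p = 0.172), and leaving out single arrays moved both values. Tip minus stalk was -0.26 without the first tip array and -0.59 without the second, and stalk minus mesenchyme was 0.19 without the first mesenchyme array and 0.75 without the second. This probe set and 1428853_at disagree on the call but not on which tissue was highest. Probe set 1439663_at was below the threshold throughout, with 24.8 and 22.3 in tips, 34.0 and 26.3 in stalks and 23.0 and 29.8 in mesenchyme. Its stalk and mesenchyme arrays overlapped.

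Hhip, a membrane protein that binds Hedgehog ligand and limits its reach, gave weak signals that were above those of the other tissues in stalks. Probe set 1455277_at read 20.7 and 22.4 in tips, 67.6 and 65.3 in stalks and 22.4 and 28.7 in mesenchyme. Tips and mesenchyme overlapped and stalks stood clear of both. Tips were lower than stalks by -1.14 (SE 0.14, adjusted p = 0.000339), a call, and stalks were 0.99 above mesenchyme (95% interval 0.68 to 1.3, adjusted p = 0.0013), 1.99-fold and so just short of one. Because this probe set entered the test only through its stalk signal, the call is a description of that signal. A pseudocount of 64 in place of 16 reduced the tip minus stalk difference to -0.61 and ended the call, and a pseudocount of 1 raised the stalk minus mesenchyme difference to 1.36 and made it one.

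The 3 further Hhip probe sets were untested, and each was highest in stalks on both arrays. Both stalk arrays lay above all others for 4.91% of the 21066 untested mouse probe sets. Probe set 1421426_at read 11.4 and 11.5 in tips, 27.8 and 33.4 in stalks and 14.8 and 12.6 in mesenchyme. Probe set 1437933_at read 22.8 and 26.5 in tips, 33.4 and 32.0 in stalks and 25.8 and 20.7 in mesenchyme. Probe set 1438083_at read 7.33 and 7.08 in tips, 20.8 and 19.7 in stalks and 8.22 and 8.78 in mesenchyme. In all 3 the stalk arrays were above every tip and mesenchyme array, at signals under the threshold.

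Smo, the membrane protein that Ptch1 restrains, differed by 1.29-fold or less between the mouse tissues. Probe set 1427048_at read 616 and 663 in tips, 564 and 563 in stalks and 506 and 475 in mesenchyme, a gentle order from tip to mesenchyme without overlap. Its largest difference was tip minus mesenchyme, 0.37 (95% interval 0.23 to 0.51, adjusted p = 0.00158). Stalk minus mesenchyme was 0.2 (adjusted p = 0.0787) and tip minus stalk 0.18 (adjusted p = 0.064). Probe set 1427049_s_at, designed on the same target sequence, read 732 and 759 in tips, 738 and 750.4 in stalks and 615 and 658 in mesenchyme. Tips and stalks overlapped there, with a difference of 0 (95% interval -0.12 to 0.13, adjusted p = 0.98), and each was 0.22 above mesenchyme (adjusted p = 0.0127 for tips and 0.0308 for stalks). Probe set 1442215_at was among the dimmest of the array and overlapped in all comparisons, with 9.78 and 8.27 in tips, 8.3 and 9.37 in stalks and 8.63 and 8.78 in mesenchyme.

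Gli1, the Gli factor whose own transcription follows pathway activity, separated all 3 mouse tissues. Its only probe set, 1449058_at, read 50.5 and 49.8 in tips, 167 and 198 in stalks and 79.5 and 89.2 in mesenchyme. The order was stalk, mesenchyme, tip, with no overlap, and the tip signal was at the threshold for testing. Tips were lower than stalks by -1.58 (SE 0.14, 95% interval -1.89 to -1.27, adjusted p = 4.77e-05), a call. Stalks were 0.98 above mesenchyme (95% interval 0.67 to 1.29, adjusted p = 0.00141), 1.97-fold and short of a call. That call turns on small choices: it was made on the values as deposited (1.04), without the first stalk array (1.09) and without the second mesenchyme array (1.05). Tips were lower than mesenchyme by -0.6 (adjusted p = 0.00836), 1.52-fold.

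Gli2, the main activator, differed little. Probe set 1459211_at read 445 and 467 in tips, 555 and 511 in stalks and 446 and 445 in mesenchyme, so that stalks were above both other tissues, which overlapped. The tip minus stalk difference was -0.22 (adjusted p = 0.036), stalk minus mesenchyme 0.25 (adjusted p = 0.0371) and tip minus mesenchyme 0.03 (95% interval -0.11 to 0.18). Probe set 1446086_s_at, on the same target sequence, read 166 and 173 in tips, 180 and 182 in stalks and 163 and 148 in mesenchyme. Its arrays did not overlap, but its intervals included 0, with tip minus stalk at -0.09 (95% interval -0.32 to 0.15) and stalk minus mesenchyme at 0.2 (95% interval -0.03 to 0.44).

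Gli3, which acts mainly as a repressor when ligand is absent, was lower in tips on its brighter probe sets. Probe set 1455154_at read 446 and 433 in tips, 608 and 576 in stalks and 556 and 577 in mesenchyme. Probe set 1456067_at read 331 and 332 in tips, 443 and 468 in stalks and 386 and 433 in mesenchyme. On both, tips lay below every array of the other tissues. The tip minus stalk differences were -0.42 (adjusted p = 0.000926) and -0.44 (adjusted p = 0.00241), and the tip minus mesenchyme differences -0.36 (adjusted p = 0.00158) and -0.29 (adjusted p = 0.0155), each from 1.22- to 1.36-fold. Stalks and mesenchyme were close, at 0.06 (95% interval -0.07 to 0.2) and 0.15 (95% interval -0.02 to 0.32). The dim 1450525_at read 78.1 and 94.1 in tips, 91.8 and 90.7 in stalks and 88.7 and 73.8 in mesenchyme, with tips overlapping both and a tip minus stalk interval of -0.4 to 0.25.

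**Figure D2:**
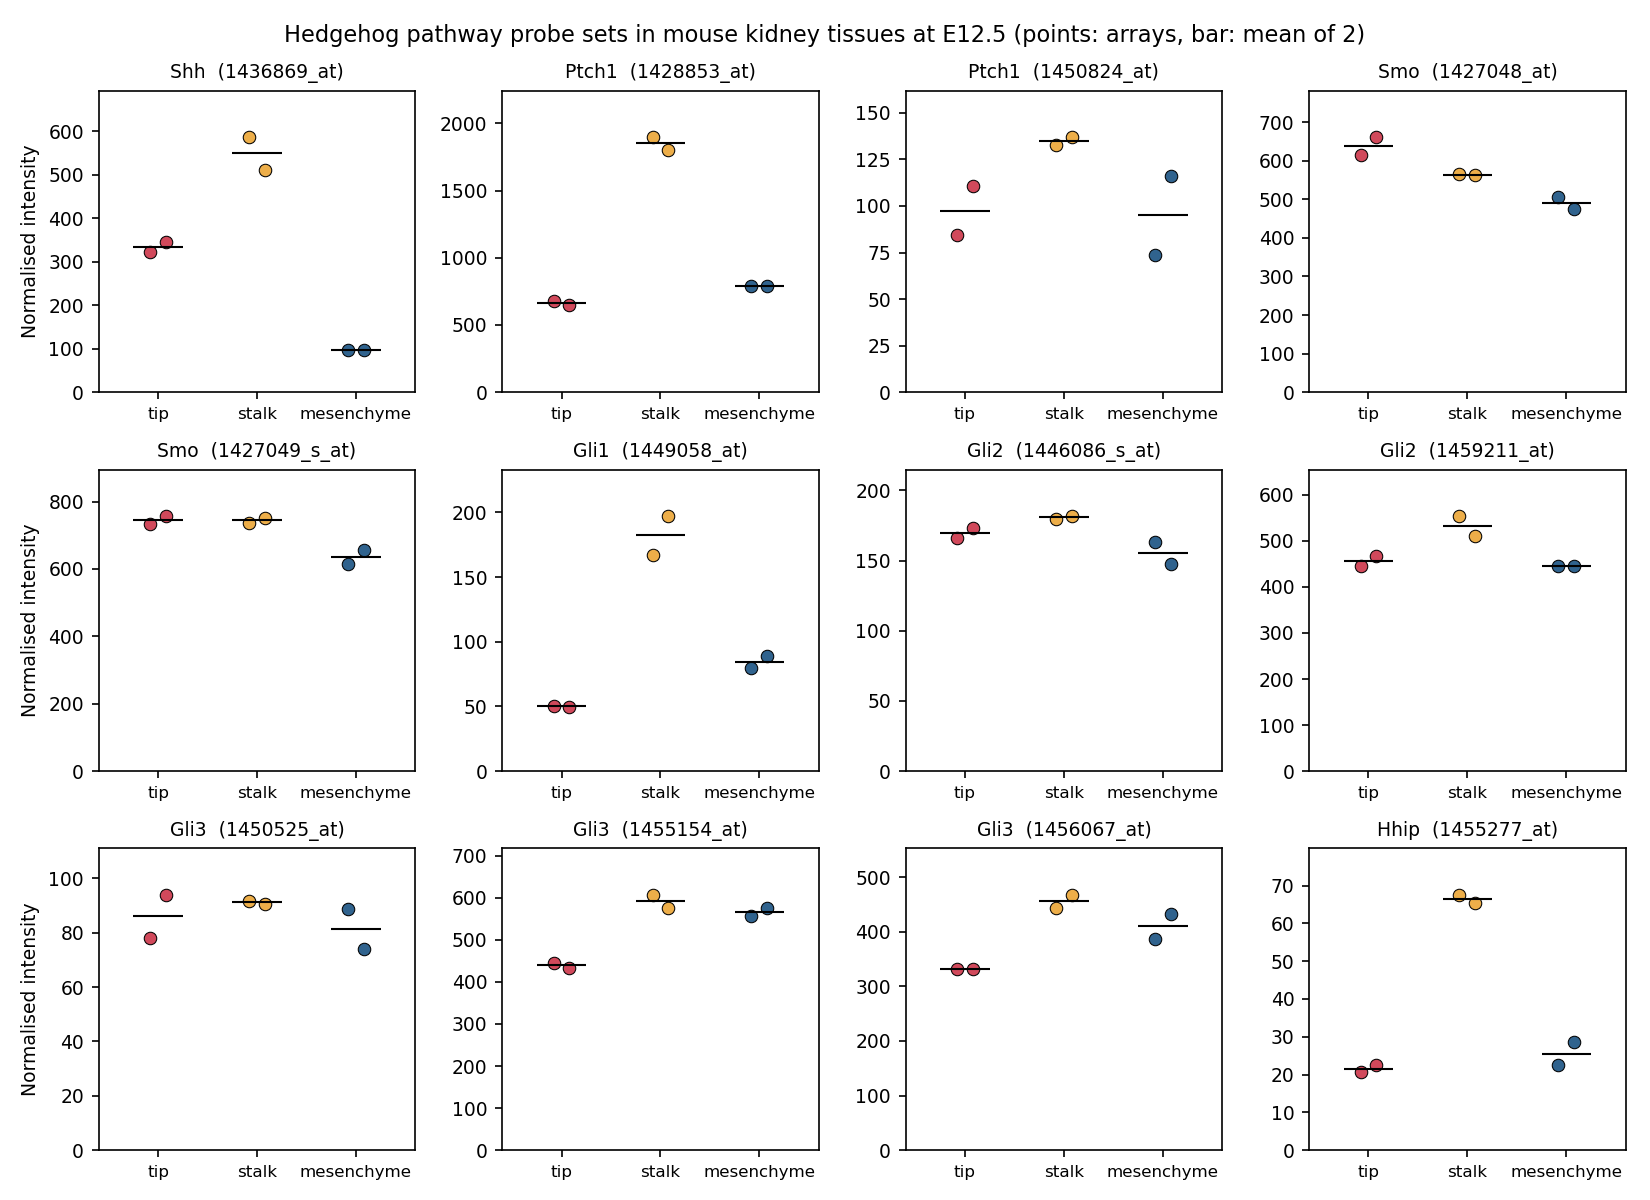
Normalised intensity (linear axes from 0) of the 12 tested Hedgehog probe sets on each mouse array, with tips, stalks and mesenchyme from left to right and a bar at the mean of 2 arrays. Shh was lowest in mesenchyme, at 96.8 and 97.0, while Ptch1 1428853_at, Gli1 and Hhip peaked in stalks.

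Set side by side, the ligand and its responsive genes did not share an order. Shh ran stalk, tip, mesenchyme, Ptch1 1428853_at and Gli1 ran stalk, mesenchyme, tip, and Hhip was high in stalks alone among tissues whose tip and mesenchyme arrays overlapped. The counts of calls are read over the 11 probe sets that reached the threshold in every mouse tissue, since Hhip 1455277_at entered only through the tissue where it is high. In tip minus stalk, 2 of the 11 were called, Ptch1 1428853_at and Gli1, both lower in tips. Over the 23971 tested mouse probe sets 4.58% were called in that comparison, 3.63% lower and 0.951% higher in tips, so that most calls of the array ran the same way. In tip minus mesenchyme 1 of 11 was called, Shh, higher in tips, where 8.15% of all tested were called and 3.89% were higher. In stalk minus mesenchyme 2 of 11 were called, Shh and Ptch1 1428853_at, both higher in stalks, where 2.77% of all tested were called and 2.34% were higher. The median log2 differences of the 11 were -0.42, 0.05 and 0.22 in these comparisons, against 0.06, 0.01 and -0.05 over all tested probe sets. The 3 comparisons share arrays, and with so few probe sets, several of them on the same gene, these counts describe the members only.

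**Figure D3:**
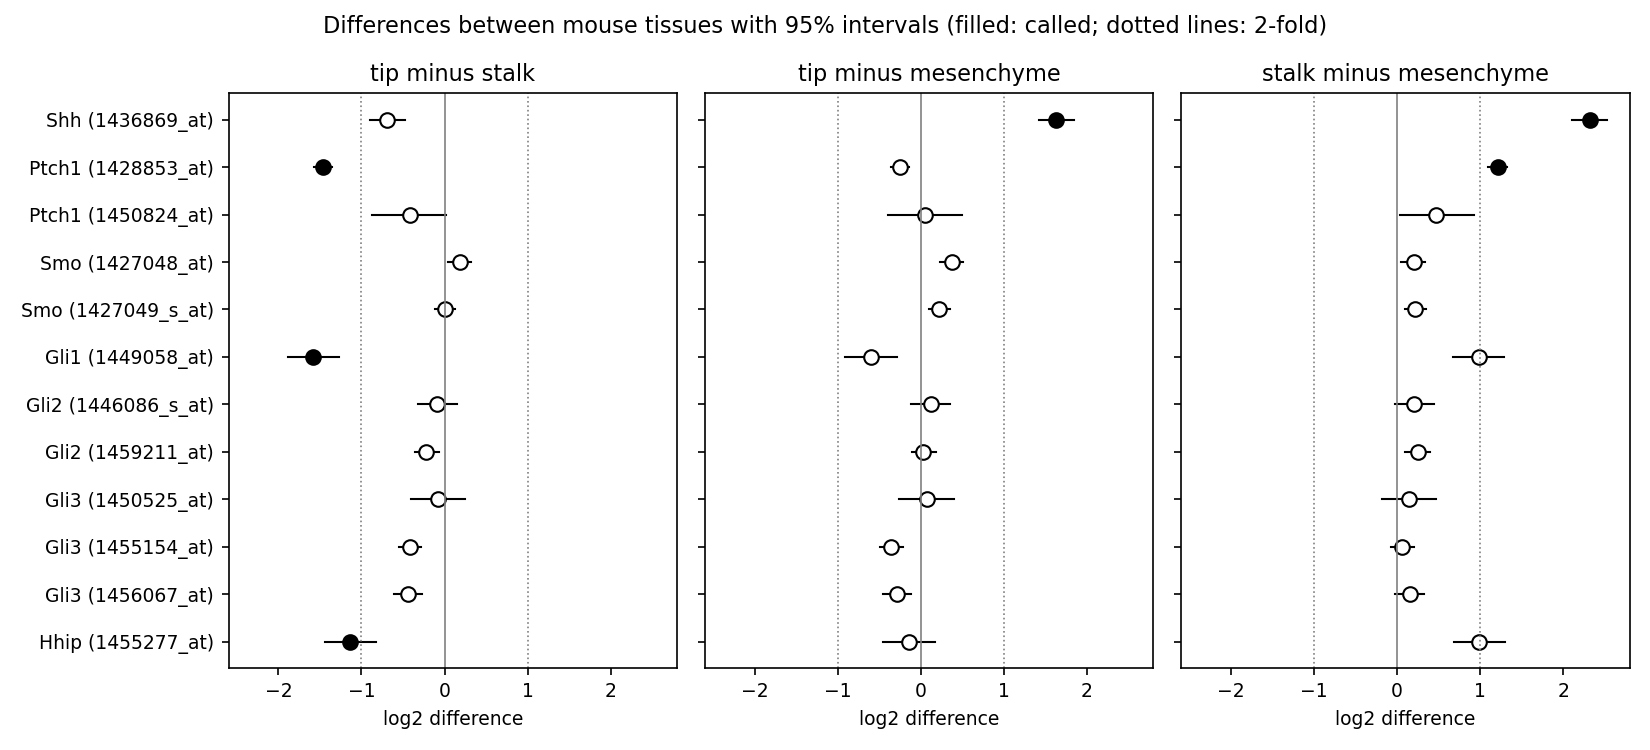
Log2 differences of the 12 tested Hedgehog probe sets between mouse tissues, with 95% intervals from limma; filled points were called and dotted lines mark 2-fold. Ptch1 1428853_at, Gli1 and Hhip lie beyond 2-fold below 0 in tip minus stalk, while Smo, Gli2 and Gli3 lie within 2-fold in every panel.

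The genes of ligand production and release gave 1 call in mouse. The related ligands Ihh and Dhh and the release factor Scube2 were below the threshold in every mouse tissue, with Ihh averaging 32.3 ± 2.13 in tips, 32.0 ± 2.44 in stalks and 34.3 ± 2.66 in mesenchyme (SD, n = 2 each). The called gene, of 4 tested, was Scube3, which encodes a secreted protein of the family that helps release Hedgehog from cells. Its call was in stalk minus mesenchyme, where 2.77% of all tested probe sets were called and 2.34% were higher. With so few genes this count describes the list only. Scube3 averaged 455 ± 18.2 in tips, 485 ± 11.3 in stalks and 223 ± 10.9 in mesenchyme (SD, n = 2 each). Stalks exceeded mesenchyme by 1.07 (SE 0.07, adjusted p = 1.52e-05), and tips exceeded mesenchyme by 0.98 (adjusted p = 8.56e-06), just short of the 2-fold rule. Disp1, needed to release the lipid-bearing ligand, was lower in tips than in mesenchyme by -0.68 (adjusted p = 0.00307) without a call. Hhat, which attaches palmitate to Hedgehog proteins, and Scube1 had adjusted p of 0.282 or more in every mouse comparison.

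The co-receptors differed in order. Gas1, a membrane co-receptor that aids ligand binding, averaged 1166 ± 87.2 in tips, 2885 ± 14.7 in stalks and 5679 ± 191 in mesenchyme (SD, n = 2 each). It was lower in tips than in stalks by -1.3 (SE 0.05, adjusted p = 5.67e-07) and than in mesenchyme by -2.27 (SE 0.05, adjusted p = 8.04e-09), both called, and lower in stalks than in mesenchyme by -0.97 (adjusted p = 4.94e-06). With all Gas1 probe sets averaged, tip minus stalk was -0.79, which ends that call, and tip minus mesenchyme was -1.65. Cdon and Boc, related co-receptors of the immunoglobulin family, ran in opposite orders. Cdon averaged 473 ± 3.99 in tips, 317 ± 16.5 in stalks and 249 ± 1.4 in mesenchyme, with tip minus mesenchyme at 0.88 (adjusted p = 1.73e-05), or 0.56 over all its probe sets. Boc averaged 173 ± 23.2 in tips, 261 ± 19.8 in stalks and 324 ± 7.02 in mesenchyme, with tip minus mesenchyme at -0.85 (adjusted p = 0.000286). Neither Cdon nor Boc was called. Gpc3, a proteoglycan that binds Hedgehog ligand and lowers signalling, differed by -0.29 in tip minus stalk (adjusted p = 0.00186) and 0.2 in stalk minus mesenchyme (adjusted p = 0.0223). Lrp2, an endocytic receptor of the pathway in other tissues, differed by 0.75 in tip minus mesenchyme (adjusted p = 0.00916), and Hhipl1 was below the threshold. Over the 5 tested genes of this list, limma called 1 in tip minus stalk, 1 in tip minus mesenchyme and 0 in stalk minus mesenchyme. Over all tested probe sets 4.58%, 8.15% and 2.77% were called in these comparisons. At limma's adjusted p under 0.05 there were 4, 4 and 3 of the 5, against 28.5%, 33.6% and 13.1% of all tested probe sets. With so few genes these counts describe the list only.

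The machinery between Smo and Gli gave no 2-fold difference in mouse. Of 16 tested signal transduction genes, which include Sufu, Kif7 and the kinases that mark Gli proteins for cutting, limma called 0 in all 3 comparisons. At an unadjusted p under 0.05 there were 6 in tip minus stalk, 5 in tip minus mesenchyme and 1 in stalk minus mesenchyme, and at an adjusted p under 0.05 there were 4, 3 and 0. Over all tested probe sets the share at an adjusted p under 0.05 was 28.5% in tip minus stalk, 33.6% in tip minus mesenchyme and 13.1% in stalk minus mesenchyme. The lowest value was that of Gsk3b, a kinase that marks Gli proteins, at -0.48 in both tip minus stalk (adjusted p = 0.000432) and tip minus mesenchyme (adjusted p = 0.000284). The differences of the 16 lay between -0.48 and 0.24, and their medians were -0.02, -0.07 and -0.04 in these comparisons. Of 11 tested genes of the primary cilium, limma again called 0, with 4, 3 and 0 at an unadjusted p under 0.05, 3, 2 and 0 at an adjusted one, differences between -0.48 and 0.24 and medians of 0.06, 0.04 and -0.09. The list medians lie within 0.1 of the medians of all tested probe sets given above.

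Genes described elsewhere as responsive to Hedgehog in kidney or ureter were mostly low in tips. Of 15 tested genes, 0 were called higher and 8 lower in tips than in stalks, 1 higher and 9 lower in tips than in mesenchyme, and 2 higher and 2 lower in stalks than in mesenchyme. Over all tested probe sets, 0.951% were called higher and 3.63% lower in tips than in stalks, 3.89% higher and 4.26% lower in tips than in mesenchyme, and 2.34% higher and 0.426% lower in stalks than in mesenchyme. Of the 15, 12 reached the threshold in every tissue, while Tshz3, Foxl1 and Osr1 were below it in tips. Among those 12, 5 were called lower in tips than in stalks, 1 higher and 7 lower in tips than in mesenchyme, and 1 higher and 1 lower in stalks than in mesenchyme. The medians of these 12 were -0.87, -1.58 and -0.37, against 0.06, 0.01 and -0.05 over all tested probe sets. The list was written with results of these data known, and several of its genes, Tbx18, Tshz3, Acta2, Myocd and Osr1, are also on the cell type lists above, so the count is no independent evidence of a direction.

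Bmp4, a secreted factor of the ureteric mesenchyme, averaged 182 ± 11.1 in tips, 1040 ± 9.02 in stalks and 536 ± 5.5 in mesenchyme (SD, n = 2 each). Its tip minus stalk difference was -2.41 (SE 0.06, adjusted p = 4.28e-08), and its stalk minus mesenchyme difference of 0.93 (adjusted p = 1.73e-05) was short of a call. Tbx18 and Tshz3, transcription factors needed for ureteric smooth muscle, were called in all 3 comparisons and were highest in stalks. Tbx18 averaged 53.8 ± 26.0 in tips, 1560 ± 84.8 in stalks and 654 ± 5.16 in mesenchyme, and Tshz3 averaged 47.5 ± 3.13 in tips, 613 ± 14.6 in stalks and 223 ± 35.1 in mesenchyme. Foxl1, a forkhead factor of mesenchyme next to epithelium, had the order of Hhip, with 47.5 ± 4.08 in tips, 116 ± 11.6 in stalks and 55.9 ± 9.0 in mesenchyme.

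Other genes of the list were highest in mesenchyme. Foxc1 and Foxc2, forkhead factors of mesenchyme, were lower in tips than in stalks by -2.85 (adjusted p = 2.84e-08) and -2.5 (adjusted p = 1.32e-07), and were not called between stalks and mesenchyme, at -0.61 and -0.21. Sall1 and Osr1, transcription factors of nephron progenitors, were called lower in tips than in stalks, at -1.24 and -1.41, and lower in stalks than in mesenchyme, at -1.59 and -1.66. Averaged over all its probe sets, Sall1 was at -0.79 in tip minus stalk and no longer called. Among the mouse comparisons, Cyp1b1 and Bcl2 were called in tip minus mesenchyme, at -1.67 and -1.77. Over all their probe sets Cyp1b1 was at -0.95, which ends its call, and Bcl2 at -1.11. Some genes of the list were not lowest in tips. The forkhead factor Foxf1 averaged 102 ± 21.1 in tips, 83.4 ± 8.23 in stalks and 92.8 ± 27.2 in mesenchyme (SD, n = 2 each). Its limma adjusted p was 0.414 or more in every mouse comparison. Ccnd1, a cyclin of the G1 phase, averaged 2357 ± 149 in tips, 2005 ± 34.8 in stalks and 1104 ± 50.6 in mesenchyme (SD, n = 2 each), and was called higher in tips than in mesenchyme at 1.08 (adjusted p = 8.31e-07). Mycn, a transcription factor of growing cells, averaged 1052 ± 69.2 in tips, 560 ± 11.5 in stalks and 815 ± 37.1 in mesenchyme without a call, with tip minus stalk at 0.89 (adjusted p = 1.28e-05) and tip minus mesenchyme at 0.36 (adjusted p = 0.0018). The cyclin Ccnd2 was highest in stalks, with tip minus stalk at -0.24 (adjusted p = 0.00361) and tip minus mesenchyme at 0.29 (adjusted p = 0.000935), also without a call.

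**Figure D4:**
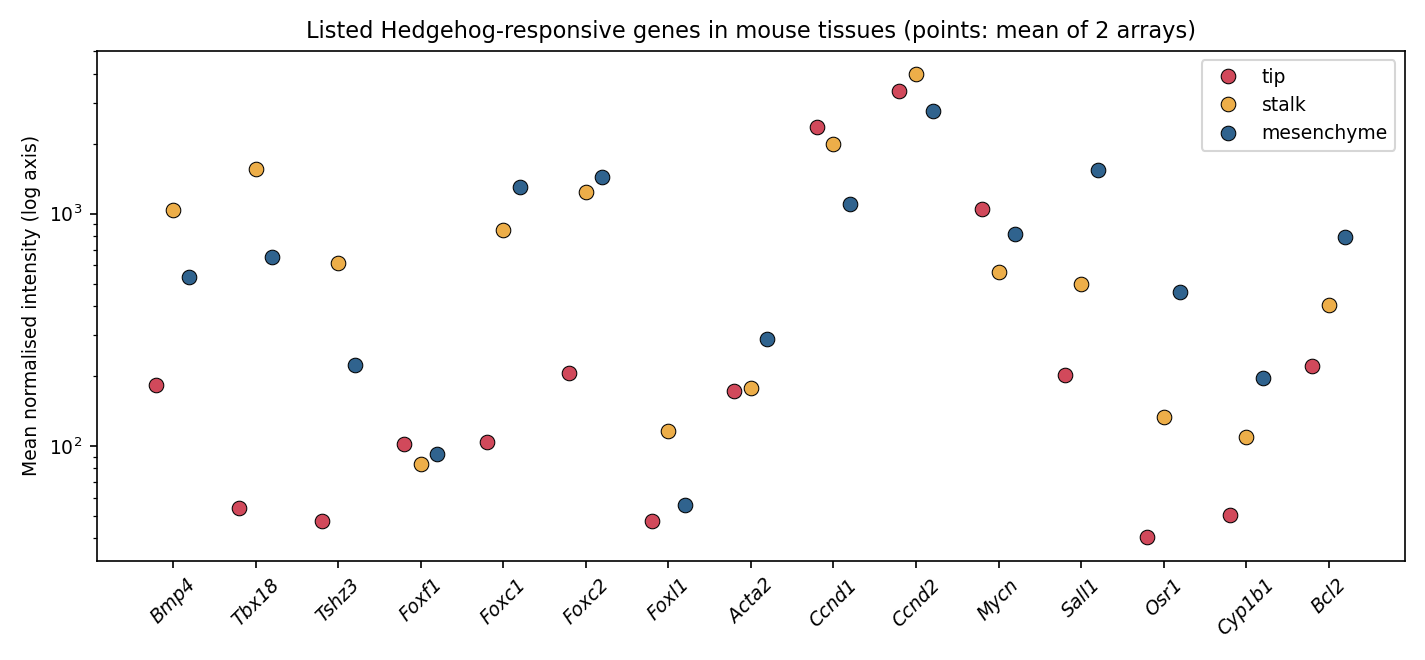
Mean normalised intensity (log axis) of the 15 tested genes described as Hedgehog responsive, in mouse tips, stalks and mesenchyme (means of 2 arrays each). Bmp4, Tbx18, Tshz3 and Foxl1 peak in stalks, whereas Sall1 and Osr1 peak in mesenchyme and Ccnd1 in tips.

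The genes whose mouse pattern was most like each member's were ranked among 12367 genes by Euclidean distance over the 6 arrays, in log2 units, after each gene was centred on its own mean. The arrays share libraries and the 3 tissues dominate any such ranking, so the names are a description. Nearest to Shh were Kcnj16 at 0.514, Slc8a1 at 0.524, Lgals3 at 0.601 and Sema3c at 0.603. Nearest to Ptch1 were Dach2 at 0.248, Apcdd1 at 0.249, Avpr1a at 0.261 and Col14a1 at 0.29. Nearest to Gli1 were Nkain4 at 0.179, Ccdc80 at 0.274, Hoxd13 at 0.327 and Adgrb2 at 0.357. Nearest to Hhip were Foxl1 at 0.238, Gna14 at 0.288, Nxpe3 at 0.318 and Bambi at 0.34. Shh itself averaged 0.31 in tips, 1 in stalks and -1.32 in mesenchyme on this centred scale, and Ptch1 -0.57 in tips, 0.89 in stalks and -0.32 in mesenchyme. Foxl1 was the only listed Hedgehog-responsive gene among these 16 names.

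In the rat, where whole buds were not divided into tip and stalk, only Shh and Smo could be read. Shh, probe set L27340_at of the first design, read 124 and 104 in buds and 123 and 109 in mesenchyme. The tissues overlapped, with a bud minus mesenchyme difference of -0.02 (95% interval -0.4 to 0.36, adjusted p = 0.965), and 0.09 (adjusted p = 0.798) without the second bud labelling. Both tissues lay near the threshold of 111 for this table. The interval excludes differences of the size seen on the brighter mouse probe set 1436869_at, 1.63 for tips and 2.32 for stalks over mesenchyme. The dim, untested mouse probe set 1427571_at gave 0.3 for tips, which lies inside the interval, and 0.45 for stalks. The species differ in probe sets and stage, and differences of weak signals come out too small on this scale. The sums of bud epithelium markers separated the same arrays, at 3937 to 4034 in buds and 802 to 856 in mesenchyme. Of 5 tested markers, 3 were called higher in buds. Gata3 was at 0.02 on this design (limma adjusted p = 0.945), while another Gata3 probe set, on design C, was at 3.58.

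Smo was read on both of these rat designs, by 1 probe set on each. On the first design U84402_at read 418 and 292 in buds and 576 and 420.2 in mesenchyme, lower in both bud arrays by a narrow margin. The difference was -0.47 (SE 0.22, 95% interval -1 to 0.05, adjusted p = 0.234). It was -0.23 without the second bud labelling, which had the high Gapdh ratio, and -0.72 without the first. The latter value rests, for buds, on the labelling with the high ratio alone. Without the first mesenchyme array it was -0.25 and without the second -0.69, so that the value kept its direction and varied in size. On design C, rc_AI071556_at read 424 and 421 in buds and 462 and 427 in mesenchyme, a difference of -0.07 (95% interval -0.34 to 0.2, adjusted p = 0.695), and -0.06 (adjusted p = 0.781) without the second bud labelling.

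**Figure D5:**
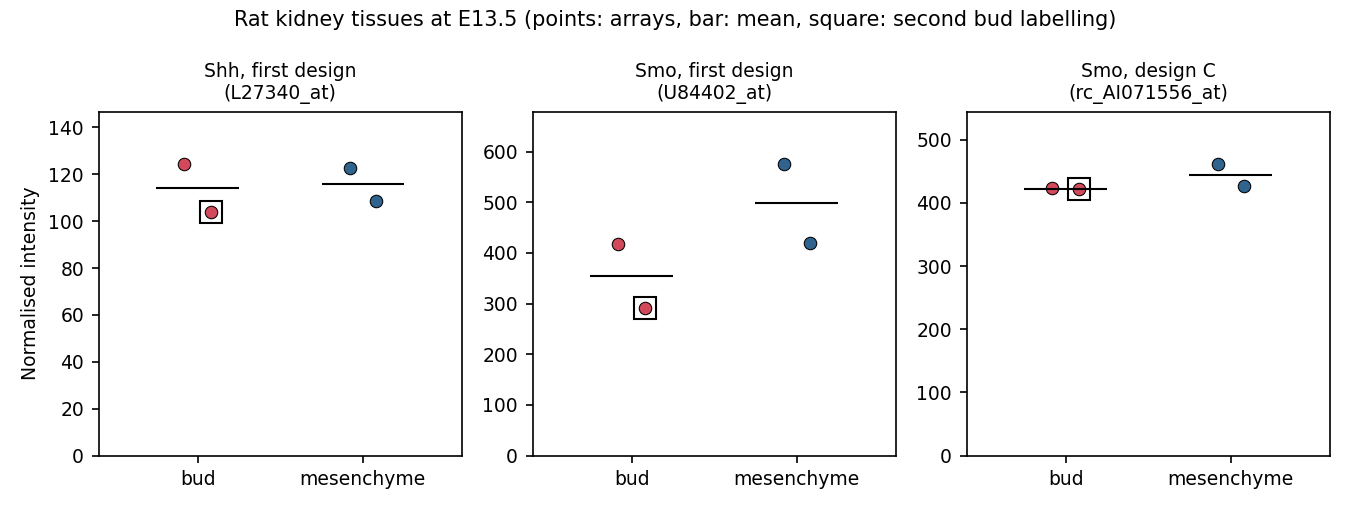
Normalised intensity (linear axes from 0) of the 3 rat probe sets on each array, with bud left of mesenchyme, a bar at the mean of 2 arrays and a square around the second bud labelling. Shh overlapped between tissues, and for Smo on the first design the second bud labelling was the lowest array at 292.

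Limma called 0 of the 2 member probe sets of the first rat design and 0 of the 1 of design C, and 0 had an unadjusted p under 0.05 on either. Over all tested probe sets 5.79% were called on the first design, 5.81% on design B and 4.64% on design C. Other pathway genes gave 5 rat calls, and each was also made without the second bud labelling. Foxc2 was lower in buds on all 3 designs, by -2.12, -3.15 and -1.29, and by -2.19, -3.3 and -1.04 without that labelling. Bmp4 was lower in buds on design C by -2.29, or -2.44 without it. In buds, Foxc2 on the first design averaged 34.65 and Bmp4 on design C 17.35, under the thresholds of 111 and 115. Both entered the test only through mesenchyme, so their calls describe the mesenchyme signal. Ccnd1 was higher in buds on the first design by 1.23, or 1.16 without the second bud labelling. The Ccnd1 call also rests on 1 probe set: with all its probe sets averaged, the first design gave 0.5 (adjusted p = 0.0323) and no call. Ihh, above its threshold on design B, averaged 269 ± 2.48 in buds and 314 ± 8.24 in mesenchyme (SD, n = 2 each), a difference of -0.21 (adjusted p = 0.19). Boc was lower in buds on the first design by -0.92 (adjusted p = 0.0155) without a call. Stroma markers on the first design summed to 1147 to 1230 in buds and 4700 to 5228 in mesenchyme, and their part in these differences was not tested.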

How the data were processed

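Each deposited table (1 mouse array type, 3 rat designs) gives a linear intensity for every probe set on every array, with 2 arrays per tissue and design. Per the labels, 1 ug of total RNA was labelled by the manufacturer's procedure, with 2 labelings of each RNA. The software and scaling behind the deposited intensity values were not given in the sources used here. A summary made as 1 value per probe set hides disagreement among its oligonucleotides, and weak signals include background.

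Values were quantile normalised within each table and taken as log2(intensity + 16). Control probe sets (64 in mouse, 59 in each rat table) were then left out. Probe sets entered the test where 1 or more tissue means reached the table's median intensity without controls. This threshold was 49.3 for mouse, 111 for the first rat design, 118 for design B and 115 for design C, and it left 23971, 4626, 4666 and 4660 probe sets. Differences were fitted with limma 3.58.1 in R 4.3.3 (lmFit, eBayes with an intensity trend), in 1 fit of 6 mouse arrays and a fit of 4 arrays for each rat design. P-values were Benjamini-Hochberg adjusted over all tested probe sets of the table, and every adjusted p is from these fits. The script was tested on simulated data.

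Every probe set of Shh, Ptch1, Smo, Gli1, Gli2, Gli3 and Hhip is given. Other pathway genes and cell type markers were represented by their single-symbol probe set of highest mean log2 intensity, and were named if called or if on the ligand or receptor lists. For Shh, Ptch1, Gli1 and Hhip the 4 genes of nearest pattern are named. Acta2, Tagln, Postn, Foxd1, Myocd, Sufu, Kif7, Gsk3b, Mycn, Ccnd2, Foxf1, Ptprc, Foxa2, Nkx2-2 and Olig2 fall outside this rule and were chosen after their values were seen. The members, lists and tests were chosen with earlier results of these data known. Alternatives were the deposited values without normalisation, pseudocounts of 1 and 64, no filter, no intensity trend, leaving out each array, the replicate number as a block, and the mean of all probe sets of a pathway gene. The number of arrays limits the precision.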

Additional observations from a re-analysis of the deposited data

Results flagged for a closer look

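By its normalised values, Smo lay on opposite sides of mesenchyme in the 2 species, but by narrow margins in rat. There, both normalised bud arrays were below both mesenchyme arrays. The bud minus mesenchyme log2 difference was -0.47 on the first design (interval -1 to 0.05) and -0.07 on design C (interval -0.34 to 0.2). Neither interval excluded a difference of the other sign. The nearest arrays of the first design read 418 in buds and 420.2 in mesenchyme. On design C the values as deposited overlapped, at 422.2 and 439 in buds and 448.5 and 421.8 in mesenchyme. In mouse, the tip and stalk arrays were above the mesenchyme arrays on both tested Smo probe sets, with differences of 0.2 to 0.37. The difference between the species was not tested, and neither rat value was called. The species differ in probe sets, in stage (E13.5 in rat and E12.5 in mouse) and in the division of the bud, which cannot be told apart here.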

How the results depend on the processing

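Of the values of single Hedgehog probe sets under the alternatives, 454 stayed on the same side of the call rule, 7 became calls, 1 lost its call and 0 called values reversed. The lost call was Hhip 1455277_at in tip minus stalk, -0.61 with a pseudocount of 64. The gained calls were all in stalk minus mesenchyme: Gli1 at 1.04 on the values as deposited, 1.1 with a pseudocount of 1, 1.09 without stalk array 1 and 1.05 without mesenchyme array 2, and Hhip at 1.36 with a pseudocount of 1, 1.01 without stalk array 2 and 1.1 without mesenchyme array 2. With a pseudocount of 1 the count of Hedgehog probe sets called in stalk minus mesenchyme was therefore 4, against 2. The main counts were 3 in tip minus stalk and 1 in tip minus mesenchyme. The 4 and the 3 include Hhip 1455277_at, which entered the test only through stalks. Without it the count in tip minus stalk was 2. With single arrays left out, tip minus stalk was -1.5 to -1.42 for Ptch1 1428853_at, -1.69 to -1.47 for Gli1 and -1.17 to -1.1 for Hhip. Shh in tip minus mesenchyme was then 1.58 to 1.67. Called Ptch1 1428853_at ranged from -1.5 to -1.4 in tip minus stalk, and Gli1 from -1.84 to -1.11. A pseudocount of 64 lowered the calls over all probe sets to 671, 1266 and 392, against 1098, 1954 and 663, in the mouse comparisons in the order tip minus stalk, tip minus mesenchyme, stalk minus mesenchyme, and to 172, against 271, on rat design B. Without the first bud array the first rat design gave 475 calls, against 268, and design C 360, against 216; without the first or the second mesenchyme array design C gave 80 and 94. A fit that leaves a tissue with 1 array assumes that it varies like the other tissues. Averaging all probe sets of a gene left 7 of 9 other pathway genes called in tip minus stalk (Gas1 and Sall1 lost), 10 of 11 in tip minus mesenchyme (Cyp1b1 lost) and 5 of 5 in stalk minus mesenchyme. On the first rat design 1 of 2 stayed called, with Ccnd1 lost and Acta2 gained at -1.37. Same-numbered arrays deviated together (correlations of 0.424 to 0.566 in mouse and 0.221 to 0.308 in rat), but the labels tie the numbers to no batch. With the replicate block the Hedgehog calls stayed at 3, 1 and 2 in mouse, the 3 again with Hhip 1455277_at, and at 0 in rat. In that fit limma's adjusted p of Smo U84402_at was 0.0392. Its bud minus mesenchyme difference was -0.45 between arrays numbered 1 and -0.5 between arrays numbered 2.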
